A study of Mus musculus with 6 samples.

Results

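Of the 1057 cells with a productive T cell receptor (TCR) β chain (TRB) in 3 single-cell TCR libraries, 62 held 2 productive TRB and 995 held 1. These 62 cells, called dual-TRB cells here, were chosen by counting, for each cell barcode, the TRB contigs listed as productive for which V gene, J gene and CDR3 were named, and they were compared with the 995 single-TRB cells. No cell held 3 or more. The dual-TRB cells numbered 11 in uveitis dataset 1, 32 in uveitis dataset 2 and 19 in the library from mice without uveitis, and 27 of the 32 in uveitis dataset 2 carried the same TRB pair, which is described apart from the other 35.

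The cells were CD4+ T cells from pooled lymph nodes (LN) of AireGW/+ Lyn-/- mice at 9 wk of age. Both alleles were shared by all groups: AireGW is a dominant-negative, hypomorphic allele of Aire, the regulator that lets the thymus express proteins of other tissues, and Lyn is a Src family kinase of B cells and myeloid cells. The groups differed in having or not having spontaneous uveitis, with 2 libraries from mice with uveitis and 1 from mice without. Cells were taken for binding of an I-Ab tetramer carrying P2, an epitope of the retinal protein IRBP, by magnetic enrichment and a TCRβ+CD4+CD8- sort, and libraries were made with the 10x Genomics 5′ kit. Mice were pooled within each library, so cells cannot be assigned to animals, and with 1 library without uveitis no test between the groups was run. CD4 and other cell type markers were not measured in these tables, and the mRNA libraries of the same cells were not analysed here.

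A productive Trb gene is built by joining a V, a D and a J segment, and a developing T cell assembles D to J on both alleles before V joins on either of them. A first functional β chain normally stops V joining on the other allele, which is called allelic exclusion, so that most αβ T cells express 1 β chain. The Tra locus has no such tight stop, and a second functional α chain is common. A droplet that encloses a pair of cells can also show 2 β chains under 1 barcode, often with 2 α chains and with more TCR molecules than usual.

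The repeated pair joined TRBV12-2 to TRBJ2-3 and TRBV4 to TRBJ2-2, and each chain had the same CDR3 nucleotides in all 27 cells. Trbv12-2 lies at chr6:41118851-41119364 and Trbv4 at chr6:41059394-41059886 of GRCm38, Trbj2-2 at chr6:41542957-41543007 and Trbj2-3 at chr6:41543223-41543271, all on the plus strand. The CDR3 sequences of the pair, and of the TRA found with it (Trav9-1 at chr14:53488045-53488567, Traj31 at chr14:54187895-54187951), are shown because they define the largest group of dual-TRB cells, with the bases between the germline V and J matches in capitals.
TRBV12-2 TRBJ2-3: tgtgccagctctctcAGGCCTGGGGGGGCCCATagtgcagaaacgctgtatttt
TRBV4 TRBJ2-2: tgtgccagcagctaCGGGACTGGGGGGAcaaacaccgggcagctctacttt
TRAV9-1 TRAJ31: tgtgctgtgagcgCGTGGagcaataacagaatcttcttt
The D segment was called TRBD2 for each chain in all 27 cells. The 2 CDR3 measured 54 and 51 bases, against a median of 42 and a range of 30 to 54 in the single-TRB cells of the same library. The 18 and 14 bases between V and J lay above that library's single-TRB median of 10, whose upper quartile was 13. These single-TRB cells include 13 that held this TRBV12-2 chain alone and 4 that held this TRBV4 chain alone.

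Another cell of uveitis dataset 2 held 2 TRB and 2 TRA, and its 4 CDR3 are shown because each chain was also found in other cells.
TRBV20 TRBJ2-2, 19 UMIs: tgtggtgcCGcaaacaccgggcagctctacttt
TRBV4 TRBJ2-2, 4 UMIs: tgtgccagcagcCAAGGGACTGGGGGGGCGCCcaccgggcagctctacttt
TRAV6N-6 TRAJ13, 9 UMIs: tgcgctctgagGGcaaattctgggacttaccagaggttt
TRAV9D-1 TRAJ31, 3 UMIs: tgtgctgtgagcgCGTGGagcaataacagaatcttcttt
The TRAV9D-1 CDR3 of this cell was identical in nucleotides to the TRAV9-1 CDR3 of the repeated pair, while its TRBV4 CDR3 was a different sequence. Trav9-1, Trav9-4 and Trav9d-1 are close relatives, so which of them a contig is assigned to is uncertain.

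The remaining set consists of the 4 TRB, all with TRBV13-2 (Trbv13-2, chr6:41121396-41121832, plus strand), whose CDR3 start was not in the reading frame of the annotated V gene. They are shown with the bases at which the CDR3 of in-frame TRBV13-2 chains begins in capitals.
Uveitis dataset 1, TRBJ2-3, 51 bases: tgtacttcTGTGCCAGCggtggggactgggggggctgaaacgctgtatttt
Uveitis dataset 1, TRBJ2-3, 57 bases: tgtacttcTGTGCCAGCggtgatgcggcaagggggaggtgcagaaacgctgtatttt
No uveitis, TRBJ2-7: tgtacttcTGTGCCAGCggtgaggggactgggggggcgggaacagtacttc
No uveitis, TRBJ2-2: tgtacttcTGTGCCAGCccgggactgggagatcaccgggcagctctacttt
In each of the 4 the listed CDR3 began 8 bases before the usual start, which was shared by 116 of the 121 TRBV13-2 chains. From the usual start to the end of the CDR3 the 4 sequences measured 43, 49, 43 and 43 bases, each 1 base more than a multiple of 3.

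Before the shares are given, the tables themselves differed. TCR UMIs (unique molecular identifiers, each counting 1 captured mRNA molecule) summed to 5302 in uveitis dataset 1, 7439 in uveitis dataset 2 and 21408 without uveitis, and the median TRB had 11, 10 and 15 UMIs. A further TRB contig that was not productive was listed in only 3.06% of single-TRB cells of uveitis dataset 2, against 51.1% in uveitis dataset 1 and 61.9% without uveitis. In the latter 2 libraries most of these cells had a contig without a V gene, 90 of 97 and 270 of 296. A non-productive TRB contig with V and J named was listed in 10 of 190 single-TRB cells of uveitis dataset 1. The counts were 7 of 327 in uveitis dataset 2 and 35 of 478 without uveitis. The lowest ratio of lesser to greater TRB in any dual-TRB cell of the 3 libraries was 0.2, and the lesser TRB never had under 2 UMIs, although 2, 5 and 11 single-TRB cells of the 3 libraries had a TRB of 1 UMI. For the 124 cells with 2 TRA the lowest ratio was 0.214. No weaker second chain was listed, and the sources used here do not name a step that would leave them out. One barcode was shared between uveitis dataset 2 and the library without uveitis, with different receptors in each. It was a dual-TRB cell (TRBV1 with 16 UMIs, TRBV19 with 7) in the library without uveitis, where the share was 3.63% without it. No other barcode was shared.

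Dual-TRB cells made up 5.47% of TRB-bearing cells in uveitis dataset 1 (11 of 201, exact 95% confidence interval (CI) 2.76 to 9.58). They made up 8.91% in uveitis dataset 2 (32 of 359, CI 6.18 to 12.4) and 3.82% without uveitis (19 of 497, CI 2.32 to 5.91). All intervals here are Clopper-Pearson and cover counting error only. The mean of the uveitis libraries was 7.19% ± 2.43 (SD, n = 2), and the value without uveitis lay 1.65 percentage points below uveitis dataset 1. The intervals of uveitis dataset 2 and the library without uveitis did not overlap until the repeated pair was set aside, when uveitis dataset 2 fell from the highest share to the lowest, 1.51% (5 of 332, CI 0.491 to 3.48). Only the 27 dual-TRB cells of the pair were taken out, so a fall was fixed in advance. The 13 and 4 cells that held only TRBV12-2 or only TRBV4 of the pair stayed among the 332. Without the pair uveitis dataset 2 minus uveitis dataset 1 was -3.97 percentage points, a larger gap than that of either to the library without uveitis (1.65 and -2.32), and together the uveitis libraries held 3.0% (16 of 533, CI 1.73 to 4.83). When each distinct set of TRB was counted once, so that expanded clones weighed no more than single cells, the shares were 9.02%, 4.38% and 4.59% in the order above.

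**Figure D1:**
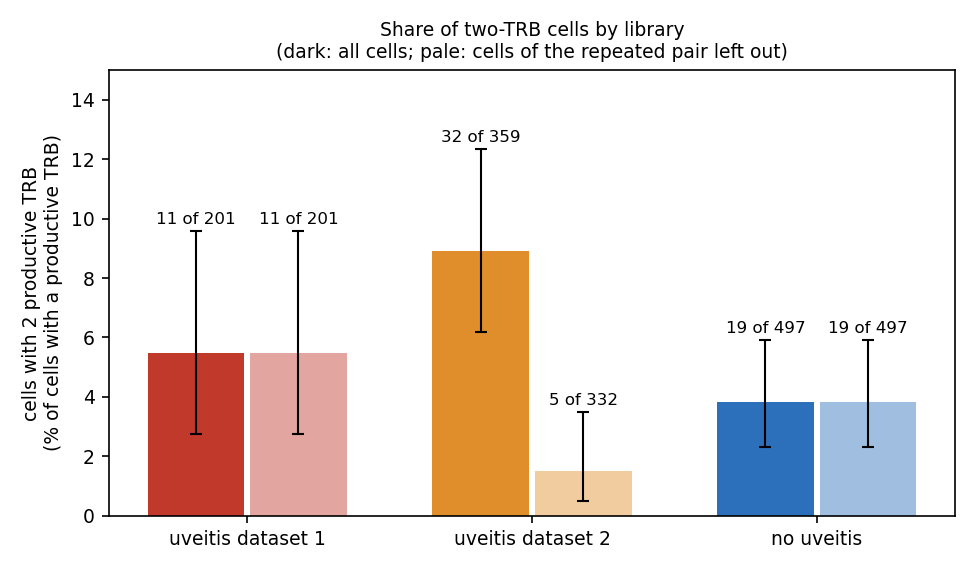
Bars give the percentage of cells with a productive TRB that held 2, in each library, for all cells (dark) and without the cells of the repeated pair (pale); lines are exact 95% confidence intervals for counting error. Leaving out the 27 cells of the pair lowers uveitis dataset 2 from 8.91% to 1.51% and leaves the other libraries as they were.

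Few dual-TRB cells held 2 TRA. In uveitis dataset 1, 0 of 11 dual-TRB cells held 2 TRA (a count of 0 allows a share of up to 27.3%), against 19 of 190 single-TRB cells (10.0%, CI 6.13 to 15.2). In uveitis dataset 2, 0 of the 27 cells of the repeated pair held 2 TRA (up to 11.1%), 1 of the other 5 did, and 26 of 327 single-TRB cells did (7.95%, CI 5.26 to 11.4). Without uveitis the numbers were 1 of 19 (5.26%, CI 0.133 to 26.0) and 77 of 478 (16.1%, CI 12.9 to 19.7). Over the 35 dual-TRB cells outside the pair, 2 held 2 TRA, 31 held 1 and 2 held none. That is 5.71% with 2 TRA (CI 0.70 to 19.2), against 12.3% of all single-TRB cells (122 of 995, CI 10.3 to 14.5). The first interval holds the second value, and no difference is read from them. The interval covers counting error only, and the pooled libraries had unlike single-TRB shares (10.0, 7.95 and 16.1%). A difference was not tested.

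**Figure D2:**
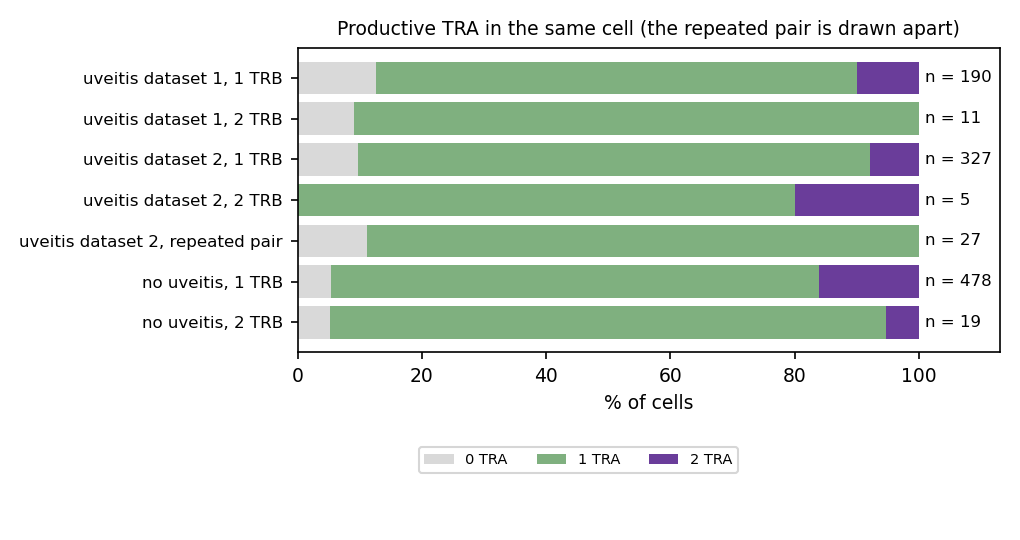
Each row gives the percentage of cells with 0, 1 or 2 productive TRA, for single-TRB and dual-TRB cells of each library, with the repeated pair of uveitis dataset 2 apart. Cells with 1 TRA form the largest part of every row, and 2 of the 35 dual-TRB cells outside the pair hold 2 TRA.

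Total TCR UMIs, counted over all contigs of a barcode, had medians in dual-TRB cells outside the repeated pair that were 1.0 to 1.19 times those of single-TRB cells. In uveitis dataset 1 the 11 dual-TRB cells ranged from 15 to 39 with a median of 22, and the 190 single-TRB cells from 5 to 156 with the same median. Without uveitis the 19 dual-TRB cells ranged from 14 to 152 with a median of 35, and the 478 single-TRB cells from 5 to 220 with a median of 31. Above the upper quartile of single-TRB cells, 29 and 48 UMIs, lay 1 of the 11 and 6 of the 19. For uveitis dataset 2 the 5 dual-TRB cells outside the pair had 12, 17, 19, 29 and 37 UMIs, against a single-TRB median of 16 (range 4 to 119). The 27 cells of the repeated pair had a median of 23 (range 7 to 97), 1.44 times the single-TRB median, and 13 of them lay above its upper quartile of 23.5. Counted over productive TRA and TRB alone, the median of dual-TRB cells was 1.06 times that of single-TRB cells in uveitis dataset 1 (17 and 16 UMIs) and 1.25 times without uveitis (30 and 24). In uveitis dataset 2 it was 1.36 times outside the pair (19 and 14) and 1.64 times in the pair (23 and 14).

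Outside the repeated pair, the greater TRB of dual-TRB cells alone had about as many UMIs as the TRB of single-TRB cells. The medians of greater and only TRB were 10 and 11 in uveitis dataset 1 and 16 and 16 without uveitis. For uveitis dataset 2 they were 11 outside the pair and 13 in it, against 10. TRA UMIs had medians of 3 in dual-TRB and 5 in single-TRB cells of uveitis dataset 1, and 7 and 8 without uveitis. In uveitis dataset 2 the TRA medians were 5 outside the pair and 4 in it, against 4 in single-TRB cells.

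**Figure D3:**
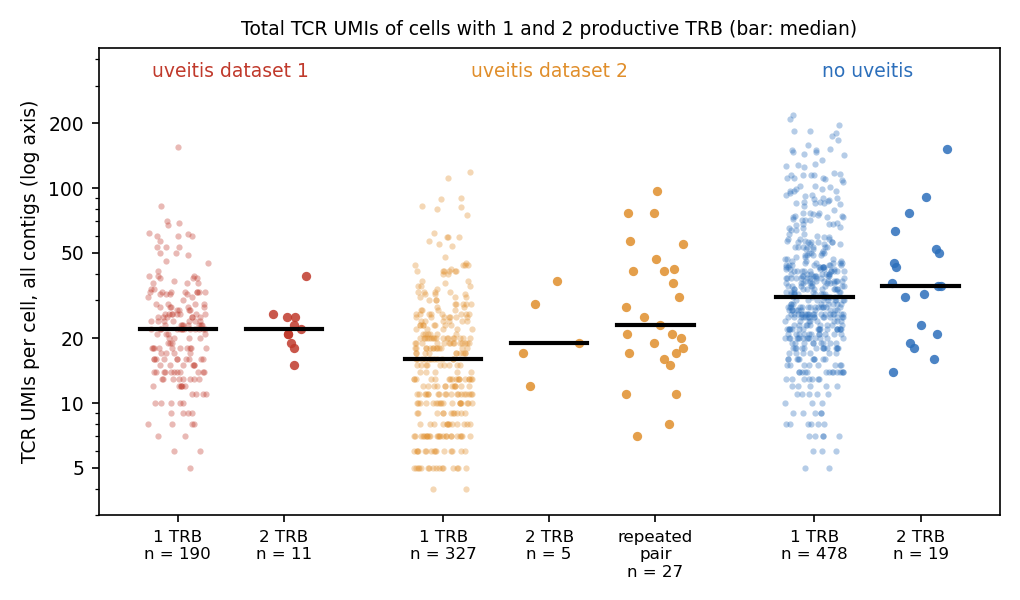
Points are cells, the vertical axis is the total of TCR UMIs over all contigs of the barcode on a log scale, and bars are medians. Dual-TRB cells lie within the range of the single-TRB cells of their library, and the medians are 22 and 22 in uveitis dataset 1, 16, 19 and 23 (1 TRB, 2 TRB, repeated pair) in uveitis dataset 2, and 31 and 35 without uveitis.

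The 2 TRB of a cell were of comparable abundance in many cells. The ratio of lesser to greater UMIs had a median of 0.5 in uveitis dataset 1 (range 0.235 to 0.727) and 0.611 without uveitis (range 0.231 to 0.909). It was 0.375 in the repeated pair (range 0.219 to 0.769), and the 5 other cells of uveitis dataset 2 had a median of 0.222 (range 0.2 to 0.8). The ratio was at least 0.5 in 6 of 11 cells, in 14 of 19 cells without uveitis, in 8 of the 27 cells of the pair and in 1 of the other 5. No ratio below the listed limit given above could be seen in these tables.

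The cell with the most UMIs was in the library without uveitis, where TRBV17/TRBJ2-4 had 86 UMIs and TRBV19/TRBJ2-4 had 49, with a single TRA (TRAV6-1/TRAJ39, 12 UMIs) and 152 TCR UMIs in all. Next by their lesser TRB came TRBV4/TRBJ2-7 with 25 and TRBV3/TRBJ2-3 with 18 UMIs (TRA TRAV9-4/TRAJ38), and TRBV3/TRBJ2-1 with 23 and TRBV19/TRBJ1-1 with 18 (TRA TRAV12D-3/TRAJ12). None of these 6 TRB was the only TRB of another cell. In uveitis dataset 1 the corresponding cells had 11 and 8 UMIs (TRBV13-3, TRBV5), 8 and 5 (TRBV13-1, TRBV3) and 17 and 4 (TRBV14 and one of the out-of-frame TRBV13-2), each with 1 TRA. The 3 of uveitis dataset 2 had 20 and 4 (TRBV13-2, TRBV19), 5 and 4 (TRBV19, TRBV13-1) and 11 and 3 (TRBV13-2, TRBV26). All 3 of these cells had a TRA with TRAV9-1, joined to TRAJ9, TRAJ22 and TRAJ43, the V gene of the repeated pair's TRA. TRAV9-1 was also in 42 of the 295 single-TRB cells of that library that had a TRA (14.2%). These 42 include cells that held only 1 TRB of the repeated pair, 13 with its TRBV12-2 and 4 with its TRBV4.

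**Figure D4:**
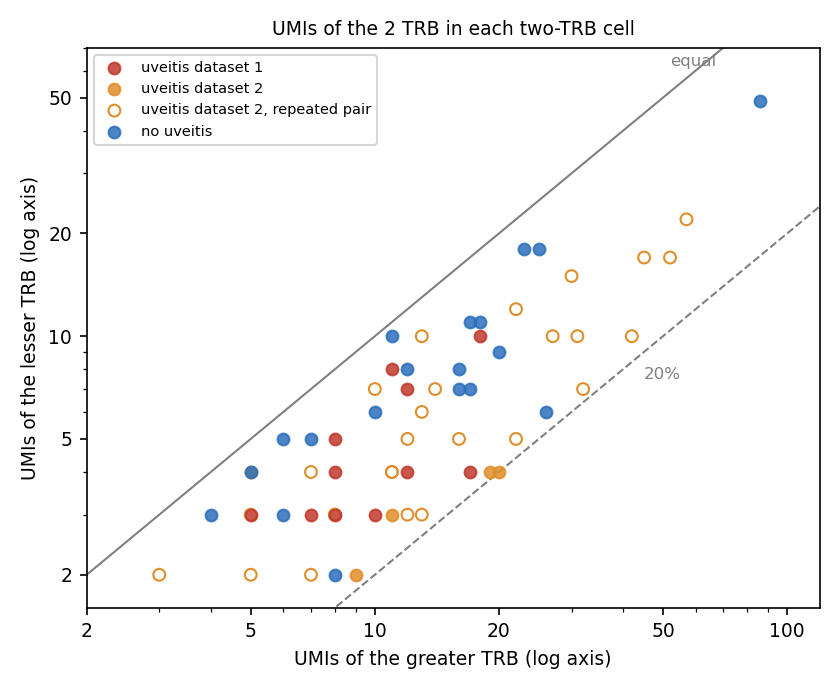
Each point is a dual-TRB cell, with the UMIs of its greater TRB against those of its lesser TRB, both on log axes; the solid line marks equal UMIs and the dashed line 20%. No cell lies below 20%, cells without uveitis reach ratios up to 0.909, and cells with the same pair of counts overlie each other.

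At least 1 TRB of the repeated pair was held by 44 cells, all in uveitis dataset 2. Both TRB were listed in 27 (61.4%, CI 45.5 to 75.6), TRBV12-2 alone in 13 and TRBV4 alone in 4. Neither TRB was found in uveitis dataset 1 (0 of 201 cells, which allows up to 1.49%) or without uveitis (0 of 497, up to 0.604%). The pair's TRA was found in 24 of the 27 cells, in all 13 cells with TRBV12-2 alone and in 2 of the 4 with TRBV4 alone, and the other 3 of the 27 had no TRA. In all, 39 of the 44 cells carried this TRA and none carried a second one.

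TRBV12-2 had between 3 and 57 UMIs in the 27 cells with a median of 13, and TRBV4 between 2 and 45 with a median of 6. TRBV12-2 was the greater in 24 cells. TRBV4 was the greater in 3, with 45 against 17, 13 against 10 and 8 against 3 UMIs. TRBV4 made up a median of 27.8% of the pair's UMIs in a cell (range 17.9 to 72.7), and 32.2% of them summed over the 27 cells.

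The 13 cells with TRBV12-2 alone had 2 to 33 TRB UMIs with a median of 8, below the median of 19 for the pair's summed UMIs in the 27 cells. The 4 deepest of them had 33, 29, 18 and 17. Since no second TRB below 0.2 of the greater was listed in any cell, a TRBV4 chain that was absent from these cells and one too weak to be listed cannot be told apart. The 4 cells with TRBV4 alone had 4, 4, 6 and 14 UMIs, and the same holds for TRBV12-2 in them. The cell with 14 had a TRA with the TRAV9-1/TRAJ31 CDR3 of the pair with 1 base substituted, and 1 of the others had an unrelated TRAV9-1/TRAJ52 CDR3.

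**Figure D5:**
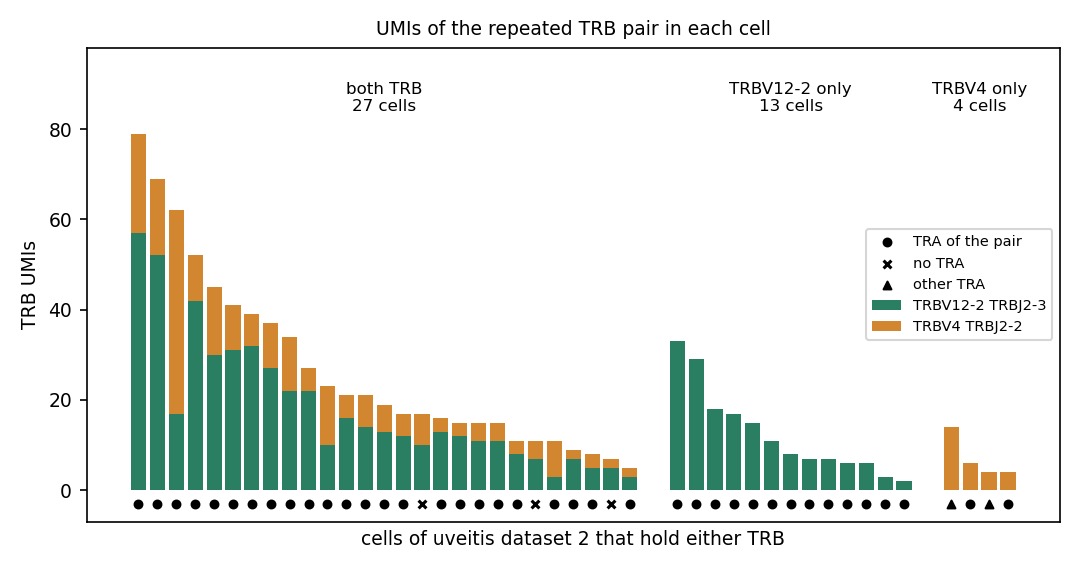
Stacked bars give the UMIs of TRBV12-2/TRBJ2-3 and TRBV4/TRBJ2-2 in each of the 44 cells of uveitis dataset 2 that hold either, and symbols under the bars give the TRA. TRBV12-2 has more UMIs than TRBV4 in 24 of the 27 cells with both, and 39 of the 44 cells carry the same TRA.

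The clonotype numbers in the deposited table split these cells. The 24 cells with both TRB and the TRA formed clonotype 2, the 13 with TRBV12-2 alone clonotype 5, and the 3 with both TRB and no TRA clonotype 18. The 4 with TRBV4 alone were spread over 3 further numbers, of 2, 1 and 1 cells. The largest clonotype of that table, number 1, held 37 cells. The CDR3 nucleotides of that TRA were also listed with TRAV9-4 in 19 cells of uveitis dataset 2 and 2 cells of uveitis dataset 1, and with TRAV9D-1 in 3 cells of uveitis dataset 2. All of these carried other TRB.

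Outside the pair, 13 of 70 TRB of dual-TRB cells (18.6%, CI 10.3 to 29.7) were also the only TRB of another cell of the library, by V gene, J gene and CDR3 nucleotides. Of these, 7 were greater and 6 lesser TRB, and both TRB recurred in 3 of the 35 cells, 1 in 7 and neither in 25. By library the share was 7 of 22 in uveitis dataset 1 (31.8%, CI 13.9 to 54.9), 2 of 10 in uveitis dataset 2 and 4 of 38 without uveitis (10.5%, CI 2.94 to 24.8). One TRBV4/TRBJ2-5 chain of uveitis dataset 1 is counted once for each of the 2 dual-TRB cells that held it. Among single-TRB cells, 57.4%, 71.9% and 24.5% shared their TRB with another single-TRB cell, values that include the large clones. Counted once per distinct TRB, 27.0% (30 of 111), 29.8% (39 of 131) and 8.61% (34 of 395) were in more than 1 single-TRB cell, and each lay inside the interval of the dual-TRB share of its library (2.52 to 55.6 for the 2 of 10). No TRB of a dual-TRB cell was found in another library, by nucleotides or by V gene and CDR3 amino acids. The same count was not made for the TRB of single-TRB cells, so the absence cannot be read as particular to dual-TRB cells.

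The TRA on either side was compared next. In 5 of the 13 recurrences a lone cell carried the same TRA as the dual-TRB cell, and in the other 8 the TRA differed. A TRA was listed on both sides in all 13. In single-TRB cells whose TRB recurred and which could be compared in the same way, the TRA matched in 52 of 89 cells (58.4%) of uveitis dataset 1, 202 of 210 (96.2%) of uveitis dataset 2 and 83 of 109 (76.1%) without uveitis. By library the dual-TRB matches were 1 of 7, 2 of 2 and 2 of 4. The single-TRB values count every cell, so large clones weigh more in them and give each cell more partners to match. The dual-TRB values count chains, and no difference is read from these unlike measures.

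The dual-TRB cell of uveitis dataset 2 with 2 TRA, printed above, held 37 TCR UMIs. Its TRBV20/TRBJ2-2 was the only TRB of 3 cells, with 8 to 12 UMIs, and all 3 carried its TRAV6N-6/TRAJ13. Its TRBV4/TRBJ2-2 was the only TRB of 2 cells, with 18 and 27 UMIs, and both carried its TRAV9D-1/TRAJ31. The barcode thus held the chains of 2 receptors that were each found complete in other cells, and its total UMIs lay above the upper quartile of 23.5. Whether that droplet held 2 cells was not tested.

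Both TRB also recurred in 2 cells of uveitis dataset 1, shown here for that reason.
TRBV15 TRBJ2-3, 18 UMIs: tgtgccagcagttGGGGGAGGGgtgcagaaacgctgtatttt
TRBV13-3 TRBJ2-7, 10 UMIs: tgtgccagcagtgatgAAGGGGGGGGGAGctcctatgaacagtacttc
TRBV20 TRBJ2-1, 12 UMIs: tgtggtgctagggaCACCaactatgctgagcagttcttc
TRBV4 TRBJ2-5, 7 UMIs: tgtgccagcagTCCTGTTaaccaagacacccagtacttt
The first cell joined TRBV15/TRBJ2-3, the only TRB of 12 other cells and the second most frequent TRB of that library, to TRBV13-3/TRBJ2-7, the only TRB of 1 cell. It carried 1 TRA (TRAV16N/TRAJ15), which matched 6 of the 7 lone TRBV15 cells that had a TRA and did not match the lone TRBV13-3 cell, and its 39 TCR UMIs were the most of the 11. The second cell joined TRBV20/TRBJ2-1, found alone in 1 cell, to TRBV4/TRBJ2-5, found alone in 2. Its TRA (TRAV14-2/TRAJ52) was in none of those lone cells. The same TRBV4/TRBJ2-5 chain was also the greater TRB, with 10 UMIs, of another dual-TRB cell of that library, beside a TRBV4/TRBJ1-1 chain of 3 UMIs.

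Without uveitis no cell had both TRB recur. TRBV23/TRBJ2-5 (8 UMIs) was the only TRB of 2 cells and TRBV16/TRBJ2-7 (16 UMIs) of 1, each as the greater TRB and each with a TRA of the dual-TRB cell. The single dual-TRB cell of this library with 2 TRA was the TRBV16 cell, and its lone counterpart carried both of the same TRA, TRAV12-2/TRAJ35 and TRAV16/TRAJ38. As lesser TRB, TRBV13-2/TRBJ2-4 (6 UMIs) was alone in 4 cells with up to 90 UMIs and TRBV31/TRBJ2-5 (3 UMIs) in 1 cell with 43. In both cases the lone cells carried another TRA.

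The most frequent TRB of each library, found alone in 15, 46 and 20 cells, were in no dual-TRB cell. Of the 5 most frequent TRB in each library, only TRBV15/TRBJ2-3 of uveitis dataset 1 (1 cell) and TRBV12-2/TRBJ2-3 of uveitis dataset 2 (the 27 cells) were found in dual-TRB cells. TRBV31/TRBJ1-3 of uveitis dataset 2, the most expanded of all with 46 cells, was in none of the 5 dual-TRB cells outside the pair. The shares of dual-TRB cells outside the pair were 5.47, 1.51 and 3.82% in the 3 libraries. At such shares few dual-TRB cells would be awaited for clones of this size, so nothing is read from these absences.

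In the dual-TRB cell of the library without uveitis that held 2 productive TRBV31 chains, with TRBJ1-3 (4 UMIs) and TRBJ2-5 (3 UMIs), the table listed a further TRBV31/TRBJ2-7 contig that was not productive and had 62 UMIs. It was the only dual-TRB cell of the 62 with a further V-J rearrangement, and its 91 TCR UMIs were the second highest of the 19. Its TRBJ2-5 chain is the one found alone with 43 UMIs in another cell. Among single-TRB cells, 52 of 995 had a non-productive TRB contig with V and J named. Trbv31 lies downstream of the constant genes on the minus strand (chr6:41557691-41558452) and is joined by inversion.

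The 4 TRB out of the V gene's frame were the only ones among 1119 productive TRB. All 4 were the lesser TRB of a dual-TRB cell, with 4 and 4 UMIs in uveitis dataset 1 and 9 and 2 UMIs without uveitis, against 17, 12, 20 and 8 UMIs of the other TRB of the cell. None was found among the 108 TRBV13-2 chains of single-TRB cells, and all 995 TRB of single-TRB cells were in frame (a count of 0 allows up to 0.302%). Of the 8 lesser TRB with TRBV13-2, 4 were out of frame. With these chains set aside the share of dual-TRB cells was 4.48% in uveitis dataset 1 and 3.42% without uveitis, a recount added after the data were seen, and that of uveitis dataset 2 did not change.

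Across the dual-TRB cells outside the pair, TRBV13-2 was the most used V gene with 13 of 70 TRB (18.6%, CI 10.3 to 29.7), against 10.9% in single-TRB cells (CI 8.99 to 13.0). TRBV13-2 was the greater TRB in 5 cells and the lesser in 8. Of these 8 lesser chains 4 were the out-of-frame ones, a kind found in 0 of the 108 TRBV13-2 chains of single-TRB cells, and they add to the share of 18.6%. TRBV19 followed with 8 of 70 (11.4%, against 8.24%). TRBV4 also had 8 of 70, 6 of them in uveitis dataset 1, where it made up 27.3% of the 22 TRB (CI 10.7 to 50.2) against 2.63% of single-TRB cells (5 of 190, CI 0.860 to 6.03) and 2.70% of their distinct TRB (3 of 111). These 6 chains lay in 4 of the 11 cells, and 2 of the 4 held TRBV4 in both TRB. The same TRBV4/TRBJ2-5 chain is counted 2 times among the 6, while the 3 of 111 counts each TRB once. The interval treats the chains as separate, although they are linked in these ways. TRBV13-2 and TRBV13-3 followed in uveitis dataset 1 with 3 each, and 2 of these TRBV13-2 chains were out of frame. The 10 TRB of the 5 other cells of uveitis dataset 2 included 2 with TRBV13-2 and 2 with TRBV19. Without uveitis TRBV4 made up 1 of 38 TRB, and TRBV13-2, TRBV19 and TRBV3 led with 8, 5 and 4. With the repeated pair kept, TRBV4 and TRBV12-2 took 28 and 27 of the 64 TRB of uveitis dataset 2.

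Among J genes outside the pair, TRBJ2-7 (17 of 70), TRBJ2-5 (13) and TRBJ1-1 (8) led, at 24.3, 18.6 and 11.4% against 21, 12.4 and 7.64% in single-TRB cells. All 3 single-TRB values lay inside the dual-TRB intervals. In uveitis dataset 1 TRBJ2-7 made up 9 of 22 TRB (40.9%, CI 20.7 to 63.6, against 26.3% in single-TRB cells), ahead of TRBJ2-3 with 4 and TRBJ2-5 with 3. Without uveitis TRBJ2-5 and TRBJ2-7 had 7 of 38 each and TRBJ1-1 had 5. TRBJ2 genes made up 74.3% of dual-TRB chains (CI 62.4 to 84) and 65.4% of single-TRB chains. Both TRB used TRBJ2 in 18 of the 35 cells, 1 used TRBJ1 and the other TRBJ2 in 16, and both used TRBJ1 in 1. The V gene was the same for both TRB in 4 cells and the J gene in 8, and in no cell were the TRB near-identical copies of each other. The constant gene was listed as TRBC1 for all 1119 productive TRB, also for the 757 with a TRBJ2 gene, which lies between Trbc1 and Trbc2, so the constant gene was not used to tell the chains apart.

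Outside the repeated pair, CDR3 lengths had a median of 42 bases for greater and lesser TRB over all libraries, as for the only TRB. By library the medians of greater and lesser TRB were 39 and 42 bases in uveitis dataset 1, 42 and 45 in uveitis dataset 2 and 42 and 45 without uveitis, and that of the only TRB was 42 in each. The lesser TRB of uveitis dataset 1 and of the library without uveitis include the 4 out-of-frame chains, listed at 51 or 57 bases. Their listed CDR3 began 8 bases before the usual start, so no difference in length is read from the lesser medians of these libraries. The bases between the V and J matches had a median of 7 in the 35 greater TRB (range 0 to 22), 12 in the lesser (range 1 to 20) and 10 in the 995 only TRB (range 0 to 22). Outside the repeated pair the order of greater and lesser was the same in each library, with medians of 9 and 12, 10 and 12, and 7 and 14. In 24 of the 27 cells of the pair the order was the reverse. There TRBV12-2, with 18 such bases, was the greater and TRBV4, with 14, the lesser. The lesser TRB outside the pair include the 4 out-of-frame chains, with 15, 13, 17 and 15 such bases, and no difference is read. The middle quartiles of all 3 kinds overlapped, 6.5 to 12, 8.5 to 16.5 and 8 to 13.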

How the data were processed

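TCR libraries of P2+CD4+ T cells were analysed as contig tables, 1 per library. Per the labels the authors used Cell Ranger with GRCm38 (mm10), and they deposited raw read and UMI counts of each contig of barcodes called cells, without normalization. Contig length in bases was the other deposited value read. No step here removed doublets. TRB and TRA had to be listed as productive with V gene, J gene and CDR3, and contigs of other chains entered only the total of TCR UMIs per barcode. The TRB with more UMIs was called the greater. A repeated pair was a set of TRB (V, J, CDR3 nucleotides) found in more than 1 cell. CDR3 were matched to V and J transcripts and gene positions of GENCODE M21 (GRCm38), in which all 33 TRB V and J genes used were found. The reading frame was taken from its coding annotation.

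Shares are given with exact 95% Clopper-Pearson intervals, and the limit for a count of 0 is 3 counts of the total. These cover counting error only. Cells are not replicates and 1 group had 1 library, so no test was run. Named cells were all repeated pairs, all cells in which both TRB recurred, and in each library the 3 others with the most UMIs of the lesser TRB. Named V and J genes were the 3 most used, per library or over all. The out-of-frame chains, the cell with a further rearrangement and the other recurring chains were singled out after their values were seen. The members and lists were chosen with earlier results of these data known. Counting was tested on simulated tables, where 6 of 6 built-in numbers and 3 of 3 reading frames were recovered. Tables were read with pandas 2.3.3 in Python 3.11.15, intervals came from scipy 1.17.1 with numpy 2.4.6, and figures from matplotlib 3.10.9.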

Additional observations from a re-analysis of the deposited data

Results flagged for a closer look

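Contigs of chains other than TRA and TRB were listed in 52 cells of uveitis dataset 1 (24.5% of 212 cells) and in 108 cells without uveitis (21.1% of 512). They were flagged only because the share was higher in 1 of the 2 uveitis libraries than without uveitis. The other uveitis library had the lowest share, 1.10%, so no difference with uveitis is read. None of the 52 was a dual-TRB cell. Without uveitis 6 of the 19 dual-TRB cells had such a contig, each mixing segments of more than 1 chain and with at most 4 UMIs. The number in uveitis dataset 2 was 4 of 365 cells, none of them a dual-TRB cell. Immunoglobulin contigs were listed in 9 cells of uveitis dataset 1 and in none of the other libraries. No dual-TRB cell had one. Their part in the results was not tested.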

How the results depend on the processing

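Of 73 alternative values for 20 results, 66 stayed within the counting interval or the spread of their result and 7 moved. Some of the 66 could not have moved, such as leaving out the pair in the libraries that lack it, so the count is no measure of robustness. The repeated pair decided 4 of the 7. Leaving it out lowered the share of dual-TRB cells in uveitis dataset 2 to 1.51%, raised its share with 2 TRA to 20% (1 of 5 cells), lowered its median ratio of lesser to greater TRB to 0.222 (added after the data were seen) and lowered its share of recurring TRB to 20%. Counting each distinct set of TRB once gave 4.38% in that library (6 of 137), where the 27 cells of the pair count as 1 and the 327 single-TRB cells as 131. The gap of uveitis dataset 2 to the library without uveitis turned from 5.09 to -2.32 percentage points without the pair, and that to uveitis dataset 1 from 3.44 to -3.97. Reads in place of UMIs brought its ratio of median TCR totals from 1.38 to 1.05, and the cause was not tested. With 1 uveitis library left out in turn, both the mean and the combined share (7.68%) ranged from 5.47 to 8.91%. A minimum of 3 UMIs, cells with a TRA, and the expected share at 5 TRB UMIs per cell (5.56, 8.63 and 3.79%) left the shares within their intervals. So did a minimum of 2 UMIs, which could remove no dual-TRB cell because no lesser TRB had fewer. Full-length contigs gave unchanged counts. A lesser TRB of at least 10% of the greater and merging of near-identical TRB could change nothing. The lowest ratio was 0.2, and no cell held near-identical TRB. No paired analysis was possible because no result comes from a test and the groups share only 1 replicate number. Depth limits what can be said of absent chains: with 5 to 19 cells per library outside the pair, shares of dual-TRB cells with 2 TRA carry wide intervals (0.133 to 26.0% without uveitis), and second TRB below 20% of the first were not listed.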

Other observations

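In the library without uveitis, 2 of the 19 TRA of dual-TRB cells had a CDR3 that did not end in the usual phenylalanine or tryptophan, TRAV14N-3/TRAJ44 with 18 bases and 3 UMIs and TRAV7-6/TRAJ44 with 15 bases and 4 UMIs. Among TRA of single-TRB cells of that library 15 of 529 (2.84%) had no such end. The first of these cells is the one whose barcode was shared with uveitis dataset 2, and the second is the one whose lesser TRBV13-2/TRBJ2-4 chain was found alone with another TRA. In uveitis dataset 1, 0 of the 10 TRA of dual-TRB cells lacked the usual end, against 4 of 185 in single-TRB cells. In uveitis dataset 2 it was 0 of 30 against 4 of 321, so the missing end is not read as a trait of dual-TRB cells.

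In uveitis dataset 2, the TRA CDR3 of the repeated pair was found under 3 TRAV names in 62 cells, of which 39 held a TRB of the pair. One cell with the TRAV9-1 form held another TRB.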
